A study of Homo sapiens with 12 samples.

Results

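The 40 genes described here encode the machinery that makes ribosomes: subunits and initiation factors of RNA polymerase I (11 genes), core proteins of the small nucleolar ribonucleoproteins with the nucleolar scaffold proteins (10 genes), processing factors of the small ribosomal subunit (8 genes) and of the large subunit (10 genes), and MYC. They were listed by gene name, with no measured value in the rule but with earlier results of these data known, and are 40 of the 26475 gene symbols in the deposited expected counts. RNA was sequenced from PA-1, a line from an ovarian teratocarcinoma, and SK-OV-3, a line from an ovarian adenocarcinoma, after 48 h with the vehicle DMSO or with BAY-850 at 5 µM. The compound, a small-molecule ligand of the ATAD2 bromodomain, keeps this chromatin-associated ATPase from acetylated histones. The groups were therefore PA-1 with DMSO, PA-1 with BAY-850, SK-OV-3 with DMSO and SK-OV-3 with BAY-850, with 3 biological replicates each and no engineered change in any of them. The study describes p53 as deleted in SK-OV-3 and mutated in PA-1. PA-1 was grown in DMEM and SK-OV-3 in RPMI, so that line and medium cannot be told apart in a comparison of the lines.

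In every growing cell, RNA polymerase I transcribes the ribosomal DNA repeats in the nucleolus into a long precursor RNA. The factor UBTF coats the active repeats, the selectivity complex of TBP with TAF1A to TAF1D binds their promoter, and RRN3 brings the polymerase to it. Small nucleolar ribonucleoproteins then methylate the precursor (FBL with NOP56 and NOP58) or convert uridines to pseudouridine (DKC1 with GAR1, NHP2 and NOP10), while helicases, scaffolds and nucleases fold and cut it into the RNAs of the small and the large subunit. MYC binds many genes of this pathway and raises ribosome production, which links the pathway to tumour growth.

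The libraries held 34544505 to 51840233 counts, and every member had at least 643 counts in each library, so that all 40 passed the filter on low counts in each comparison. Levels are CPM, counts scaled to a common library size after TMM normalization, computed from the expected counts. Replicate 3 of SK-OV-3 with BAY-850 stood apart, with 15629 genes at 1 or more counts against 17425 to 18414 in the other libraries. The counts of members called in SK-OV-3 are given with and without it. Markers of PA-1 summed to 1345 to 1614 CPM in the PA-1 libraries and 6.40 to 9.72 CPM in the SK-OV-3 libraries, although L1TD1 and TDGF1 stayed under 1 CPM in both. Markers of SK-OV-3, an epithelial line with ERBB2 amplification, summed to 4079 to 4390 CPM with DMSO and 2869 to 3332 CPM with BAY-850 in SK-OV-3. In PA-1 they summed to 922 to 979 and 1005 to 1053 CPM, with KRT7 under 1 CPM. Of these 5 markers, 4 were called higher in SK-OV-3 than in PA-1 with DMSO and 1 was called lower, by -0.34 on the log2 scale. Markers of blood, endothelial and stromal cells summed to 451 to 559 CPM with DMSO and 591 to 642 CPM with BAY-850 in PA-1, and to 195 to 204 and 122 to 152 CPM in SK-OV-3, with PTPRC, CD3E and DCN under 1 CPM in all groups. Both sums thus moved with treatment without overlap, upward in PA-1 and downward in SK-OV-3. Bulk RNA cannot tell a change in RNA per cell from a change in the mix of cells.

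Per length of transcript, the members spanned a wide range in both lines, and the nucleolar scaffold and methylation proteins led. With DMSO, NPM1, a chaperone that makes up much of the granular part of the nucleolus, stood first at 1692 CPM per kb in PA-1 and 815 CPM per kb in SK-OV-3. The methyltransferase FBL was second in PA-1, at 325 CPM per kb, and the RNA-binding protein NCL was second in SK-OV-3, at 222 CPM per kb. MYC moved from the 8th place in PA-1 (78.2 CPM per kb) to the 3rd in SK-OV-3 (159.6 CPM per kb), where its SD overlapped with that of FBL at 142 CPM per kb. The long transcripts of POLR1A, the largest subunit of the polymerase, and UTP20, a scaffold of the early small-subunit particle, were last in both lines, at 1.84 and 3.17 CPM per kb in PA-1 and 3.34 and 4.24 CPM per kb in SK-OV-3. These values divide by the length of 1 annotated transcript, which may not be the isoform present. UBTF changed its place most visibly, from 38th of 40 in PA-1 (6.4 CPM per kb) to 22nd in SK-OV-3 (26.02 CPM per kb).

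**Figure D1:**
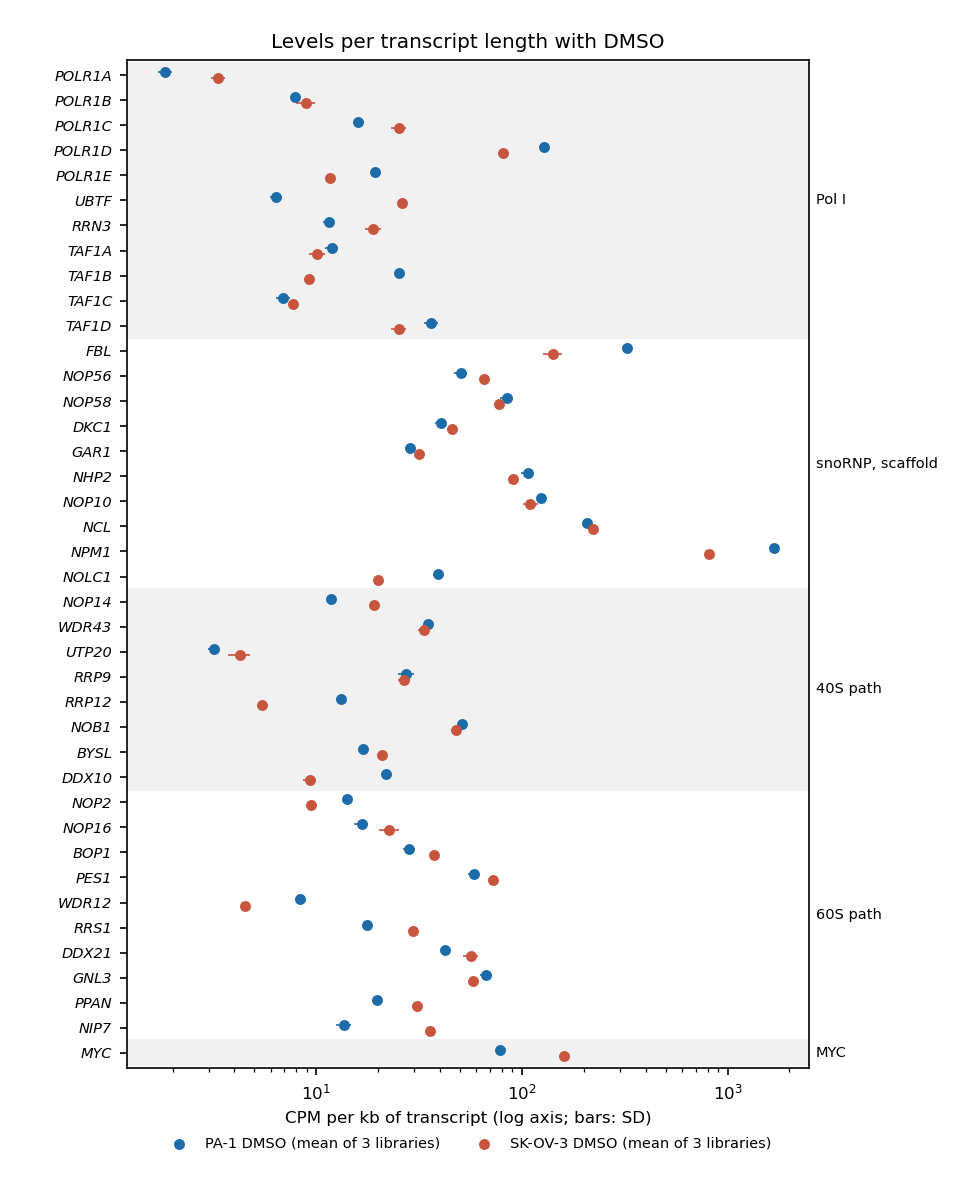
Mean level of each of the 40 genes with DMSO in PA-1 (blue) and SK-OV-3 (red), in CPM per kb of transcript on a log axis, with the SD over 3 libraries as bars and the genes grouped by role. NPM1 lies at 1692 CPM per kb in PA-1 and POLR1A at 1.84, and the distance between the colours is widest for UBTF.

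The DMSO groups were compared to ask how the pathway differed between the lines before treatment. Of the 40 members, 17 were higher and 15 lower in SK-OV-3 at an adjusted p under 0.05, and 18 differed by at least 1.5-fold. Across all 16070 genes tested, 40.1% were called higher and 40.2% lower, so the members' 42.5% and 37.5% were near the background. All 10 large-subunit factors were called, 7 higher and 3 lower, while the snoRNP and scaffold genes were called higher in 2 of 10 and lower in 5 of 10.

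Within the polymerase I machinery the lines differed in opposite directions from gene to gene. UBTF (chr17:44205033-44221626) gave 29.5, 33.4 and 33.1 CPM in PA-1 and 129, 131 and 129.6 CPM in SK-OV-3, a 4.05-fold difference and a log2 difference of 2.02 (SE 0.064, adjusted p = 1.36e-11). TAF1B, a selectivity factor subunit with a fold like that of TFIIB, gave 60.7, 60.8 and 58.9 CPM in PA-1 and 21.3, 21.4 and 23.1 CPM in SK-OV-3, a log2 difference of -1.46 (SE 0.067, adjusted p = 4.96e-10). These were the furthest apart of the 40 in each direction, and the groups did not overlap in either case. Of the polymerase subunits, POLR1A and POLR1C were higher in SK-OV-3 (log2 differences 0.85 and 0.65), POLR1D and POLR1E were lower (-0.66 and -0.72), and POLR1B, the second largest subunit, was not called, with 37.4, 35.9 and 34.5 CPM in PA-1 and 35.6, 41.99 and 43.9 CPM in SK-OV-3. RRN3 was 1.64-fold higher in SK-OV-3, at 63.99, 72.7 and 76.6 CPM against 45.3, 44.2 and 39.99 CPM. Its expected counts were not whole in any of the 12 libraries, and the table also holds its copies RRN3P1, RRN3P2 and RRN3P3 at 0 to 304 counts, so its level depends on how reads were divided.

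Of the snoRNP and scaffold genes, FBL, NPM1 and NOLC1 were lower in SK-OV-3 by the most, while NOP56 was higher and NCL was not called. FBL gave 394, 364 and 372 CPM in PA-1 and 184, 157 and 153 CPM in SK-OV-3, 2.3-fold lower in SK-OV-3 with a log2 difference of -1.20 (SE 0.072, adjusted p = 6.16e-09). NPM1 gave 3103, 2974 and 2848 CPM and 1458, 1433 and 1407 CPM, a log2 difference of -1.06 (SE 0.049, adjusted p = 4.99e-10); the expected counts of NPM1 were not whole in any of the 12 libraries, so that some of its reads were shared with another entry. NOLC1, a chaperone of small nucleolar ribonucleoproteins, differed by -0.96 on the log2 scale, and NOP56, a core protein of box C/D particles, by 0.38 (SE 0.06, adjusted p = 7.95e-05). NCL was not called (adjusted p = 0.0641), at 849.8, 825 and 825 CPM in PA-1 and 879, 898 and 904 CPM in SK-OV-3, although these groups did not overlap. Of the 10 alternatives that kept all libraries, 6 called NCL, among them DESeq2 and limma-voom. The pseudouridine synthase proteins DKC1, GAR1, NHP2 and NOP10 lay between -0.24 and 0.18 on the log2 scale.

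Among the processing factors, NIP7, a factor of precursor RNA processing, was 2.62-fold higher in SK-OV-3, with 29.7, 35.04 and 33.2 CPM in PA-1 and 85.7, 86.2 and 85.8 CPM in SK-OV-3. RRP12, needed for export of both subunits, was 2.42-fold lower, with 55.8, 59.4 and 62.1 CPM in PA-1 and 24.1, 25.6 and 23.5 CPM in SK-OV-3. The helicase DDX10 was 2.34-fold lower, with 75.3, 68.8 and 68.6 CPM in PA-1 and 27.9, 32.1 and 31.1 CPM in SK-OV-3. In each of these genes the lines stood clear of each other. BOP1, PES1 and WDR12 form 1 complex of the large-subunit pathway, yet BOP1 and PES1 were higher in SK-OV-3 (log2 differences 0.39 and 0.31) while WDR12 was lower (-0.89). MYC itself was 2.04-fold higher in SK-OV-3, at 223, 225 and 206 CPM against 107, 104 and 109 CPM. Of the 32 calls, 28 held under every alternative fit and with any library left out, and the other 4, TAF1A, DKC1, NOP10 and GNL3, had log2 differences between -0.24 and 0.18. TAF1A was lost without replicate 2 or 3 of PA-1 or replicate 1 or 2 of SK-OV-3, DKC1 without replicate 3 of PA-1 and with the GC trend removed, NOP10 without any DMSO library but replicate 1 of SK-OV-3, and GNL3 by library size only. Scaling by library size also ended the calls of TAF1A and NOP10, as did DESeq2.

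**Figure D2:**
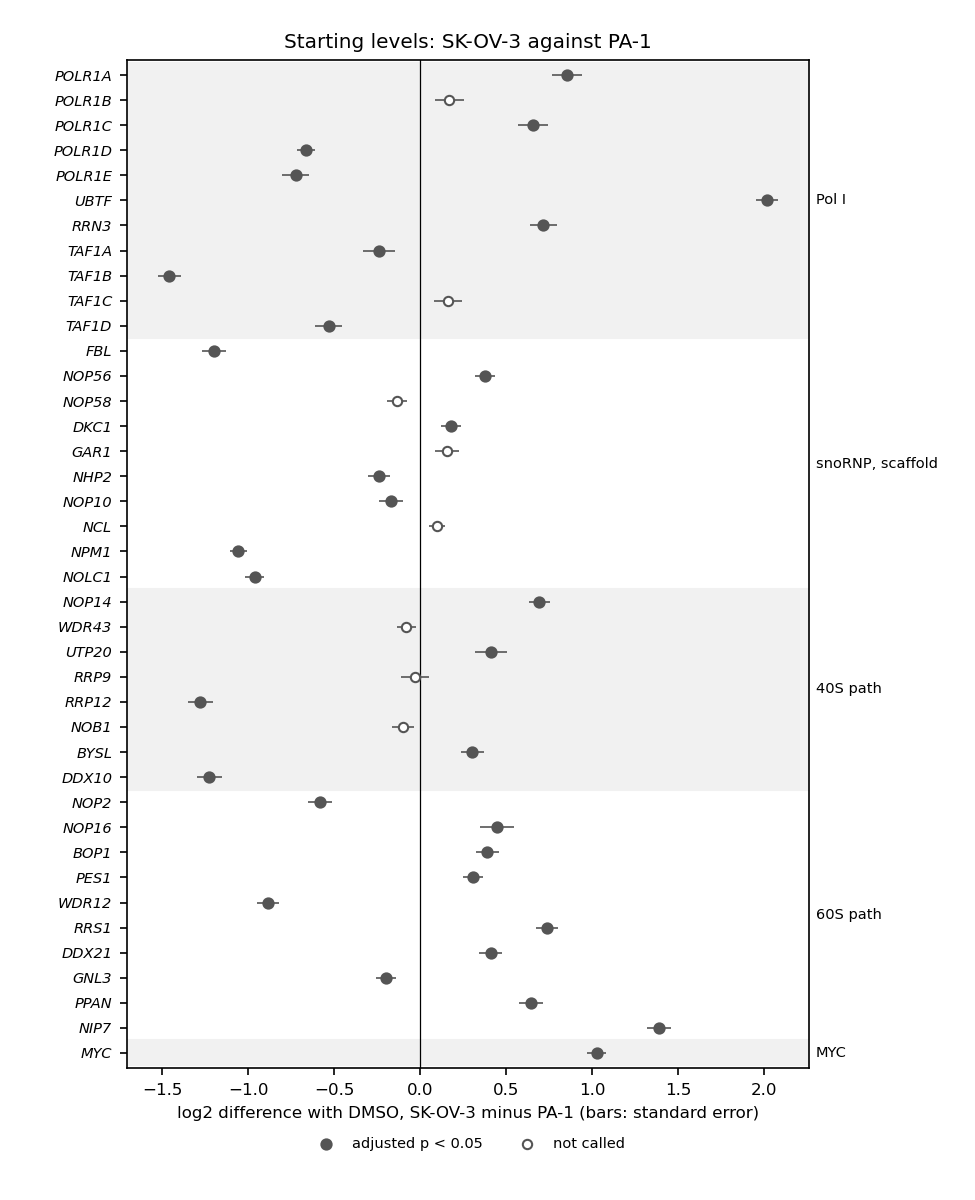
Log2 difference between SK-OV-3 and PA-1 with DMSO for each of the 40 genes, SK-OV-3 minus PA-1, with the standard error from edgeR as bars, filled where the adjusted p is under 0.05. UBTF lies furthest right at 2.02 and TAF1B furthest left at -1.46, both in the polymerase I machinery.

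In PA-1, BAY-850 changed few of the genes, and by little. NOP14, POLR1A, BOP1 and PES1 rose and NOP58 and NPM1 fell, 4 higher and 2 lower of 40, and none changed by 1.5-fold. Of all 15212 genes tested, 4.65% were called higher and 2.48% lower, against 10% and 5% of the members, which are 4 genes and 2 genes. The median log2 difference of the members was -0.042, beside -0.0019 for all genes. Among the markers, KRT19 and COL1A1 were called higher with BAY-850, and their part in the members' differences was not tested.

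NOP14, a core factor of the small-subunit precursor (chr4:2937933-2963385), had 41.3, 40.9 and 42.9 CPM with DMSO against 56.03, 53.5 and 52.7 CPM under BAY-850. It stood higher in all 3 treated libraries, by 1.3-fold, with a log2 difference of 0.38 (SE 0.061, adjusted p = 0.00187), and the call held under every alternative. Its expected counts too were not whole, so that some of its reads were shared with another entry. POLR1A gave 21.6, 25.4 and 23.6 CPM with DMSO against 31.3, 29.5 and 27.3 CPM under BAY-850, a log2 difference of 0.32 (SE 0.084, adjusted p = 0.0332) without overlap of the groups. The POLR1A call was kept without replicate 3 of BAY-850 and lost without any other PA-1 library, with adjusted p up to 0.124.

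The other PA-1 calls were smaller or closer to the threshold. BOP1 gave 69.6, 64.6 and 61.5 CPM with DMSO against 77.1, 72.1 and 80.7 CPM under BAY-850, a log2 difference of 0.23 (SE 0.066, adjusted p = 0.0467). PES1, its partner, gave 141, 124 and 135 CPM with DMSO against 151, 151 and 164 CPM under BAY-850, a log2 difference of 0.22 (SE 0.063, adjusted p = 0.0473). Both lost the call when any 1 of the 6 libraries was left out, with adjusted p up to 0.155 and 0.215. WDR12 of the same complex was not called, with a log2 difference of -0.17 (SE 0.064). NOP58, the box C/D scaffold protein, gave 177, 182 and 159 CPM with DMSO against 147, 128 and 141 CPM under BAY-850, a log2 difference of -0.32 (SE 0.068, adjusted p = 0.0123). NPM1 gave 3103, 2974 and 2848 CPM with DMSO against 2660, 2509 and 2663 CPM under BAY-850, a log2 difference of -0.19 (SE 0.049, adjusted p = 0.0329). Treated libraries lay below all DMSO libraries for both, and both calls were lost without replicate 2 of BAY-850 or without replicate 1 or 2 of DMSO.

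Base composition moved with these calls. Across 13405 coding genes, the PA-1 log2 difference had a Spearman correlation of 0.385 with the GC content of the transcript, and across the 40 members one of 0.528; genes in a library are not independent, and no test was made. The 4 transcripts that rose had GC contents of 51.3%, 51.7%, 65.2% and 58.1%, and those that fell, NOP58 and NPM1, had 41.2% and 43.3%, where the median of coding genes was 49.7%. With the GC trend of each library removed, 1 member stayed higher (NOP14, log2 difference 0.34) and 1 lower (NOP58, -0.25). The log2 differences of those that lost the call were then 0.28 for POLR1A, 0.099 for BOP1, 0.14 for PES1 and -0.14 for NPM1, in the same direction as before. The part of base composition in the single calls was not tested. Leaving out any 1 PA-1 library left 1 or 2 members higher and 0 to 2 lower. All genes called were then 273 to 810 higher and 65 to 418 lower, beside 707 and 378 with all 6 libraries.

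The initiation factors did not pass the test in PA-1, and no alternative called them. UBTF gave 29.5, 33.4 and 33.1 CPM with DMSO against 35.6, 35.9 and 35.1 CPM under BAY-850, a log2 difference of 0.15 (SE 0.071, adjusted p = 0.207), with the groups apart. TAF1A gave 21.5, 24.8 and 23.9 CPM with DMSO against 21.3, 19.6 and 18.5 CPM under BAY-850, a log2 difference of -0.24 (SE 0.088, adjusted p = 0.118). RRN3 gave 45.3, 44.2 and 39.99 CPM with DMSO against 42.98, 40.4 and 39.7 CPM under BAY-850, and its groups overlapped. TAF1B (-0.18) and TAF1D (-0.19) had negative and TAF1C (0.15) positive log2 differences, none past the threshold.

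SK-OV-3 cells showed lower levels of 8 members with BAY-850 and a higher level of 1, TAF1A. Those that fell were UBTF, the snoRNP and scaffold genes NOP56, NHP2 and NCL, the small-subunit factors UTP20 and RRP9, and the large-subunit factors BOP1 and NIP7. Background shares in SK-OV-3 were 10.8% higher and 9.56% lower among 15348 genes, against 2.5% and 20% of the members. The median log2 difference of the members was -0.083, beside -0.0091 for all genes. A negative sign was seen in 30 of 40, beside 7861 of the 15348 genes tested. No member reached 1.5-fold. The SK-OV-3 markers fell as well, with 3 of 5 called lower (ERBB2, KRT8 and KRT19) and a median log2 difference of -0.43, and of the 3 tested markers of other cells COL1A1 was called lower and CD68 higher; their part in the members' differences was not tested.

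UBTF, the member that fell most, had 129, 131 and 129.6 CPM with DMSO against 98.8, 95.6 and 91.00 CPM under BAY-850. All treated libraries were below all DMSO libraries, the decrease was 1.35-fold, and the log2 difference was -0.44 (SE 0.052, adjusted p = 0.000161). NIP7 (chr16:69337996-69343111) had 85.7, 86.2 and 85.8 CPM with DMSO against 62.9, 67.4 and 61.5 CPM under BAY-850, a 1.33-fold decrease and a log2 difference of -0.41 (SE 0.058, adjusted p = 0.000459), again without overlap. Among the 9 calls in SK-OV-3, these were the pair that held under every alternative. With 98.8, 95.6 and 91.00 CPM, treated SK-OV-3 cells still had more UBTF than PA-1 cells in either condition.

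TAF1A, a subunit of the selectivity complex, rose in SK-OV-3, with 18.7, 19.00 and 21.9 CPM with DMSO against 23.6, 25.5 and 25.1 CPM under BAY-850. Its log2 difference was 0.33 (SE 0.094, adjusted p = 0.0291), and all treated libraries were above all DMSO libraries. The call was lost without replicate 2 of BAY-850, or without replicate 1 or 2 of DMSO. TAF1B, TAF1C and TAF1D were not called, with log2 differences of -0.044, -0.19 and 0.13. The polymerase subunits were not called either: POLR1A gave 39.04, 43.3 and 45.4 CPM with DMSO against 38.1, 37.9 and 29.1 CPM under BAY-850, with treated replicate 3 the lowest, and POLR1B gave 35.6, 41.99 and 43.9 CPM with DMSO against 37.4, 39.1 and 34.3 CPM under BAY-850, with overlapping groups. RRN3 gave 63.99, 72.7 and 76.6 CPM with DMSO against 67.9, 61.7 and 76.5 CPM under BAY-850, also overlapping.

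Of the nucleolar proteins, NCL gave 879, 898 and 904 CPM with DMSO against 748, 766 and 805 CPM under BAY-850, a log2 difference of -0.20 (SE 0.047, adjusted p = 0.0132). NHP2, of the pseudouridine synthase particle, gave 80.3, 78.7 and 75.8 CPM with DMSO against 67.6, 68.5 and 58.7 CPM under BAY-850, a log2 difference of -0.26 (SE 0.067, adjusted p = 0.0186). These groups did not overlap, and both calls were lost without replicate 2 of DMSO, that of NCL also without replicate 3 of DMSO or replicate 1 or 2 of BAY-850. NOP56, the partner of NOP58 in box C/D particles, had a log2 difference of -0.18 (SE 0.052, adjusted p = 0.0302), lost without the same 4 libraries as that of NCL, while NOP58 had 0.078 and FBL, with 184, 157 and 153 CPM with DMSO against 158, 179.6 and 178 CPM under BAY-850, had 0.079. NPM1 gave 1458, 1433 and 1407 CPM with DMSO against 1326, 1371 and 1507 CPM under BAY-850, and its groups overlapped.

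In the processing group, BOP1 gave 91.01, 83.8 and 82.2 CPM with DMSO against 66.1, 63.1 and 74.2 CPM under BAY-850, a log2 difference of -0.32 (SE 0.079, adjusted p = 0.0146), with the groups apart. UTP20 differed by -0.35 (SE 0.093, adjusted p = 0.0215). BOP1 was lost without replicate 1 or 2 of either group, and UTP20 without replicate 1 of BAY-850 or replicate 2 or 3 of DMSO. RRP9, a protein of the U3 particle, differed by -0.37 (SE 0.11, adjusted p = 0.0325), and its treated replicate 3 was the lowest, with 36.2, 35.2 and 26.5 CPM; the call was lost without any 1 of the DMSO libraries. For RRP12 (24.1, 25.6 and 23.5 CPM with DMSO against 25.1, 24.4 and 18.4 CPM under BAY-850) and DDX10 (27.9, 32.1 and 31.1 CPM with DMSO against 29.1, 32.1 and 26.9 CPM under BAY-850) the groups overlapped. Without treated replicate 3, the library that stood apart, 11 members were called lower and 1 higher, beside 1852 and 2050 of all genes. Without replicate 2 of DMSO, 2 members were called lower and 0 higher, beside 788 and 993 of all genes. With all 6 libraries, all genes called lower and higher were 1468 and 1662, so the background moved with the members. With the GC trend removed, 4 members were called lower and 2 higher. The calls lost were those of BOP1, NCL, NOP56 and UTP20, whose log2 differences were then -0.34, -0.11, -0.14 and -0.26.

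**Figure D3:**
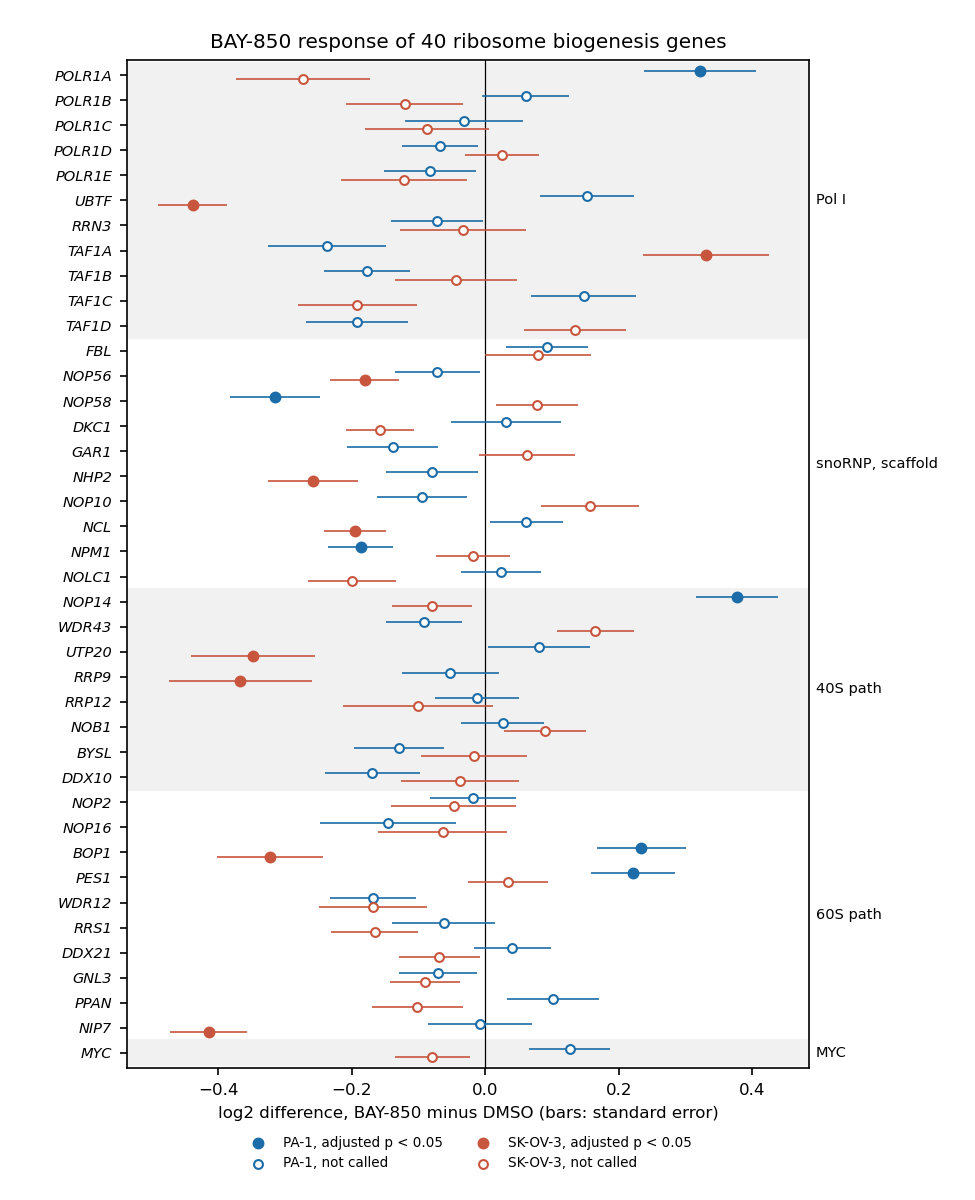
Log2 difference between BAY-850 and DMSO for each of the 40 genes in PA-1 (blue) and SK-OV-3 (red), with the standard error from edgeR as bars, filled where the adjusted p is under 0.05. All values lie between -0.44 (UBTF in SK-OV-3) and 0.38 (NOP14 in PA-1), and BOP1 is filled in both lines on opposite sides of 0.

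A test of the difference between the responses found 10 members whose response to BAY-850 was not the same in the lines. Relative to PA-1, the response in SK-OV-3 was lower for POLR1A, UBTF, NCL, NOP14, UTP20, BOP1 and NIP7 and higher for TAF1A, NOP58 and WDR43, 7 lower and 3 higher. Background shares were 7.77% lower and 6.70% higher of 16830 genes, against 17.5% and 7.5% of the members.

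UBTF and TAF1A, which both act at the ribosomal DNA promoter, had responses that differed in opposite directions. The SK-OV-3 response minus the PA-1 response was -0.60 (SE 0.083, adjusted p = 0.000196) for UBTF and 0.56 (SE 0.13, adjusted p = 0.0112) for TAF1A, and both differences held under every alternative. For POLR1A, whose level was higher with BAY-850 in PA-1 (0.32) and had a negative uncalled difference in SK-OV-3 (-0.27), it was -0.60 (SE 0.15, adjusted p = 0.0128). BOP1 rose in PA-1 and fell in SK-OV-3, and its difference was -0.57 (SE 0.10, adjusted p = 0.00183). BOP1 was the only member called in both lines. With the GC trend removed, the difference was -0.42 for BOP1 (adjusted p = 0.0732) and -0.17 for NCL (adjusted p = 0.273), and neither was called.

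For NOP14 the difference was -0.47 (SE 0.078, adjusted p = 0.000976), with 69.98, 65.1 and 67.7 CPM with DMSO against 62.6, 64.03 and 63.5 CPM under BAY-850 in SK-OV-3, where the log2 difference was -0.079 and not called. NIP7 differed by -0.42 (SE 0.098, adjusted p = 0.01), NCL by -0.27 (SE 0.07, adjusted p = 0.018) and UTP20 by -0.44 (SE 0.13, adjusted p = 0.0288), in each case with a PA-1 log2 difference between -0.0073 and 0.08 that was not called. NOP58 differed by 0.38 (SE 0.092, adjusted p = 0.0123), and WDR43, a factor of the small-subunit precursor, by 0.25 (SE 0.078, adjusted p = 0.048) although neither line alone was called. UBTF, TAF1A, POLR1A, NOP58, NOP14, BOP1 and NIP7 kept the call when any 1 of the 12 libraries was left out. NCL lost it without replicate 3 of PA-1 DMSO, replicate 1 or 2 of SK-OV-3 BAY-850 or replicate 2 or 3 of SK-OV-3 DMSO. UTP20 lost it without replicate 1 or 2 of PA-1 BAY-850, replicate 1 or 3 of PA-1 DMSO, replicate 1 of SK-OV-3 BAY-850 or replicate 2 or 3 of SK-OV-3 DMSO. WDR43 kept it only without replicate 1 of SK-OV-3 BAY-850 or replicate 2 of SK-OV-3 DMSO. By library size only, NCL, NIP7, UTP20 and WDR43 lost the call.

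**Figure D4:**
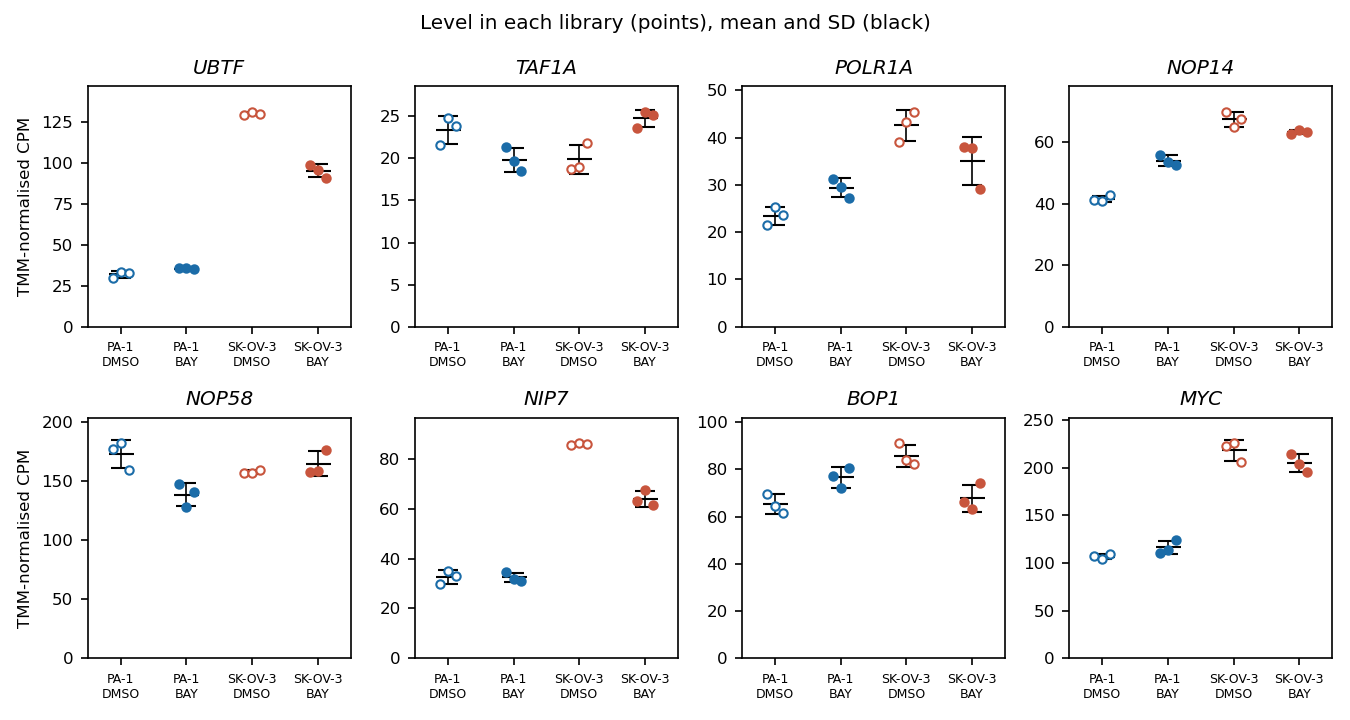
Level of 8 genes in each of the 12 libraries in TMM-normalised CPM on linear axes from 0, with open points for DMSO, filled points for BAY-850, PA-1 in blue and SK-OV-3 in red, and the mean and SD in black. Among the genes called in a line, the treated libraries lie below the DMSO libraries for UBTF, NIP7 and BOP1 and above them for TAF1A in SK-OV-3. In PA-1 those of BOP1, POLR1A and NOP14 lie above and those of NOP58 below. Uncalled genes also lie apart: POLR1A and NOP14 below in SK-OV-3, and UBTF and MYC above and TAF1A below in PA-1.

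Summed over role groups, the largest share of the members' RNA was that of the snoRNP and scaffold genes. Their sum was 4931 ± 174 CPM (SD, n = 3) in PA-1 with DMSO, 4578 ± 174 CPM once BAY-850 was added, and 3181 ± 34.7 CPM and 2994 ± 138 CPM in SK-OV-3. NPM1 set most of this sum in PA-1: without it, all other members together gave 3841 ± 65.6 CPM with DMSO against 3861 ± 122 CPM under BAY-850, groups that overlapped. In SK-OV-3 the same sum gave 3874, 3893 and 3892 CPM with DMSO against 3540, 3611 and 3604 CPM under BAY-850, which did not overlap. NCL, the most abundant gene left in this sum, gave 894 CPM with DMSO and 773 CPM under BAY-850 there. The large-subunit group gave 910, 920 and 919 CPM with DMSO against 825, 844 and 847 CPM under BAY-850 in SK-OV-3. There 9 of its 10 genes had a negative log2 difference, beside 7861 of all 15348 genes tested. Called lower were 2, which is 20% beside 9.56% of all genes. The sums of this group in PA-1 were 767, 765 and 749 CPM with DMSO against 793, 764 and 793 CPM under BAY-850, which overlapped. The small-subunit group, whose sums were 491 ± 4.82 and 485 ± 9.64 CPM in PA-1 and 446 ± 6.82 and 438 ± 15.99 CPM in SK-OV-3, overlapped in both lines. The polymerase I machinery gave 527 ± 8.65 CPM with DMSO against 509 ± 5.07 CPM under BAY-850 in PA-1, and 559 ± 15.4 and 512 ± 10.1 CPM in SK-OV-3, and no treated library reached a DMSO library of its line. Most of the decrease in SK-OV-3 was that of UBTF, which gave 130 CPM with DMSO and 95.1 CPM under BAY-850. Of the group's 11 genes there, 8 had a negative log2 difference. Among the 11, 1 was called lower and 1 higher, 9.09% in each case beside 9.56% and 10.8% of all genes. No test was made on these sums.

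MYC was not called in either line. It gave 107, 104 and 109 CPM with DMSO against 111, 114 and 124 CPM under BAY-850 in PA-1, a log2 difference of 0.13 (SE 0.061, adjusted p = 0.223), with the treated libraries above the DMSO libraries. In SK-OV-3 it gave 223, 225 and 206 CPM with DMSO against 214, 203 and 196 CPM under BAY-850, a log2 difference of -0.079 (SE 0.056, adjusted p = 0.361), with overlap. The difference between the lines' responses was -0.22 (SE 0.082, adjusted p = 0.092). Of 11 further genes of the MYC network, 2 were higher in PA-1 and 3 of the 10 tested were higher in SK-OV-3, and none was lower, where 4.65% and 10.8% of all genes were higher. MXI1, a MAX partner that opposes MYC, rose in both, from 64.6, 66.4 and 67.9 to 105, 109.7 and 107 CPM in PA-1 (0.69 (SE 0.056, adjusted p = 2.22e-06)) and from 64.2, 67.97 and 61.2 to 82.8, 80.2 and 76.8 CPM in SK-OV-3 (0.32 (SE 0.063, adjusted p = 0.00404)), and the response in SK-OV-3 minus that in PA-1 was -0.38 (SE 0.078, adjusted p = 0.00428) on the log2 scale. MLXIP, a glucose-sensing factor, was the other called in PA-1 (0.38 (SE 0.08, adjusted p = 0.0109)). MNT, another repressor that binds MAX, and MAX itself rose in SK-OV-3, by 0.45 (SE 0.094, adjusted p = 0.00632) and 0.25 (SE 0.066, adjusted p = 0.0208). The paralogue MYCN was at 81.04, 82.1 and 75.5 CPM in PA-1 with DMSO and under 1 CPM in all 6 SK-OV-3 libraries.

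The further genes of the pathway were called in both directions. Of 52 other small-subunit factors, 2 rose and 1 fell in PA-1, and 1 rose and 3 fell in SK-OV-3. These are 3.85% and 1.92% of the list beside 4.65% and 2.48% of all genes in PA-1, and 1.92% and 5.77% beside 10.8% and 9.56% in SK-OV-3, so that the list was near or below the background. TSR1, needed for late maturation of the small subunit, rose in PA-1 by 0.28 (SE 0.056, adjusted p = 0.00844) on the log2 scale, as did the RNA acetyltransferase NAT10 (0.22 (SE 0.057, adjusted p = 0.0355)), and LTV1, an export-linked factor, fell (-0.24 (SE 0.065, adjusted p = 0.0398)). In SK-OV-3 the methyltransferase EMG1 (-0.43 (SE 0.11, adjusted p = 0.0152)) and the U3 complex protein PWP2 (-0.25 (SE 0.074, adjusted p = 0.0359)) fell and ESF1 rose (0.25 (SE 0.075, adjusted p = 0.0356)). Of 52 other large-subunit factors, 1 rose and 6 fell in each line. The 11.5% that fell stood beside 2.48% of all genes in PA-1 but beside 9.56% in SK-OV-3, and the 1.92% that rose beside 4.65% and 10.8%. BRIX1 (-0.29 (SE 0.056, adjusted p = 0.00711)) and the export adaptor NMD3 (-0.23 (SE 0.056, adjusted p = 0.0268)) fell and the helicase DDX54 rose (0.27 (SE 0.06, adjusted p = 0.0158)) in PA-1. In SK-OV-3 the GTPase GNL3L (-0.59 (SE 0.097, adjusted p = 0.00158)), LAS1L, of the complex that cuts the second internal spacer (-0.36 (SE 0.068, adjusted p = 0.00342)), and MRTO4, which prepares the ribosomal stalk (-0.35 (SE 0.069, adjusted p = 0.00412)), fell.

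Of 10 further polymerase I and shared subunits, 1 rose in PA-1 and 1 fell in SK-OV-3, 10% in each case beside 4.65% of all genes higher in PA-1 and 9.56% lower in SK-OV-3. TCOF1, the treacle protein that binds UBTF, rose in PA-1 from 115 ± 0.73 CPM (SD, n = 3) to 135 ± 5.64 CPM (SD, n = 3), a log2 difference of 0.23 (SE 0.055, adjusted p = 0.0209). POLR1G, a polymerase I subunit listed as CD3EAP, fell in SK-OV-3 from 15.8 ± 2.21 CPM (SD, n = 3) to 9.1 ± 2.04 CPM (SD, n = 3), a log2 difference of -0.79 (SE 0.17, adjusted p = 0.00634), 1.73-fold and past the size of any member. Its expected counts were not whole in the 12 libraries. Of 14 exosome genes, which trim precursor RNA from its 3′ end, EXOSC8 fell in PA-1 (-0.24 (SE 0.057, adjusted p = 0.0201)), and EXOSC6 (-0.67 (SE 0.13, adjusted p = 0.00316)) and the nuclease DIS3 (-0.26 (SE 0.07, adjusted p = 0.0219)) fell in SK-OV-3. These are 7.14% and 14.3% of the list, beside 2.48% of all genes lower in PA-1 and 9.56% in SK-OV-3. Of 10 genes of the 5S particle and the p53 response, which faulty ribosome assembly can trigger, log2 differences in PA-1 lay between -0.21 and 0.18. In SK-OV-3, a line the study describes as lacking p53, CDKN1A, a cyclin-dependent kinase inhibitor, rose (0.64 (SE 0.12, adjusted p = 0.00264)) and RRM2B, a ribonucleotide reductase subunit, fell (-0.27 (SE 0.086, adjusted p = 0.0485)). Each is 10% of the list, beside 10.8% of all genes higher and 9.56% lower in SK-OV-3. RPL5 and RPL11, the proteins of the 5S particle, were not called in either line, at -0.091 and -0.17 in PA-1 and -0.088 and 0.02 in SK-OV-3.

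Entries for ribosomal RNA made up 7.94% to 16.9% of each library's counts, a share that depends on how each library removed these RNAs. The labels describe selection with oligo-dT, and the design text describes depletion of ribosomal RNA. Of 4 such entries, 1 (RNA5-8S5) was called lower in PA-1, which is 25% beside 2.48% of all genes. It gave 36.1 ± 21.5 CPM with DMSO against 10.6 ± 4.35 CPM under BAY-850. In SK-OV-3 none of the 4 was called, with log2 differences between -1.08 and -0.03. These entries are repeated copies whose counts are uncertain, and they give no measure of polymerase I output here.

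The promoters of the members were read for a sequence feature that the choice of genes did not use. The letters CACGTG, the E-box bound by MYC with MAX and by other factors, read the same on both strands and were searched in windows from 250 bases before to 50 after each RefSeq start. Of the 33 members with a window, 12 (36.4%) held the motif, against 12.1% of 11386 tested coding genes and 7.26% of all 35116 windows. In all 12 a copy lay with its centre within 40 bases of the start, but this distance was set after the positions were seen. Of the tested coding genes with the motif, 453 of 1373 had a copy so close. Of the members with a window, 36.4% had one, against 3.98% of all tested coding genes with a window. By copies, 12 of 13 in the members lay so close, against 29.1% of all copies in the windows. A match is a description of the letters and not of binding. The 5 members with the motif that were called in a comparison of BAY-850 are shown, 30 bases each on the gene's strand (GRCh38.p14, RefSeq), with the E-box in capitals.
NOP14: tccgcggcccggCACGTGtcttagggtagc
PES1: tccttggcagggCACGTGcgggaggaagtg
UTP20: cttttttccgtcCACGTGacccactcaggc
RRP9: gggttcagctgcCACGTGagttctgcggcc
WDR43: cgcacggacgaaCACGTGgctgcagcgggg

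These stretches lie at chr4:2963374-2963403 on the minus strand for NOP14, chr22:30591880-30591909 on the minus strand for PES1, chr12:101280083-101280112 on the plus strand for UTP20, chr3:51941892-51941921 on the minus strand for RRP9, and chr2:28894658-28894687 on the plus strand for WDR43. The centre of the motif lay 18, 16 and 6 bases after the start in NOP14, PES1 and WDR43, inside the first exon, and 7 and 2 bases before it in UTP20 and RRP9. The other members with the motif were BYSL, DDX21, FBL, GAR1, GNL3, NOP2 and NOP10, the last with a further copy 167 bases before its start. Responses were then listed for members with and without the motif. With it, 2 of 12 rose in PA-1 and 2 of 12 fell in SK-OV-3, with median log2 differences of -0.035 and -0.032. Without it, 1 of 21 rose and 1 fell in PA-1 and 1 rose and 5 fell in SK-OV-3, with medians of -0.067 and -0.10. Over all genes, 4.65% rose and 2.48% fell in PA-1 and 10.8% rose and 9.56% fell in SK-OV-3. Neither UBTF nor TAF1A held the motif in its window, and the difference between the sets was not tested.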

How the data were processed

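RNA-seq of 12 libraries was analysed. The authors deposited RSEM expected counts per gene symbol, without normalization. The submitters' processing notes name Bowtie2 2.1.0, RSEM 1.2.15 and hg38; the annotation is not given in the sources used here. RSEM divides reads among entries they fit, so that genes with copies or overlapping neighbours are uncertain. All columns matched a library.

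The counts were rounded, normalised with TMM and tested with edgeR 4.0.16 (R 4.3.3) by its quasi-likelihood test after its filter on low counts, with Benjamini-Hochberg adjustment over all genes tested and a threshold of 0.05. Each line was fitted alone (6 libraries), the lines were compared over the 6 DMSO libraries, and the difference of responses was an interaction term over 12 libraries. The paper's general statistics section names Student's unpaired test for most experiments, which was not run here because counts need a count model. A standard error is the log2 difference divided by the square root of F. p-values measure the spread between the replicates deposited. No 2 replicates agreed within sampling noise (their chi-square statistics were 5.05 to 72.7 times the degrees of freedom), so all 12 counted. The tests were checked on simulated counts.

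Transcript length and GC content come from GENCODE v29, matched by symbol for 23899 entries and by current symbol for 26. Promoter windows are from RefSeq. The members and the lists were chosen with earlier results of these data known. Values in each library are given for up to 5 called members per line and direction with the smallest adjusted p, the 5 with the smallest interaction p, the 5 furthest apart between the lines, and POLR1A, POLR1B, UBTF, RRN3, FBL, NCL, NPM1 and MYC; of the further lists, up to 3 called genes per list and line are named. WDR43, UTP20, RRP9, NOP56, MYCN, RPL5 and RPL11 were named after their values were seen. Alternatives were DESeq2 1.42.0, limma-voom (limma 3.58.1), RLE factors, library size with and without ribosomal RNA entries, no filter, a minimum of 10 counts per library, a block for the replicate number, a GC trend removed by loess (span 0.5), both together, all 12 libraries in 1 fit, and each library left out.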

Additional observations from a re-analysis of the deposited data

Results flagged for a closer look

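The response to BAY-850 differed between the lines, by the interaction term in edgeR's fit of 12 libraries, for 10 of the 40 genes. The values are the SK-OV-3 response minus the PA-1 response on the log2 scale. They were -0.60 for POLR1A, -0.60 for UBTF, -0.57 for BOP1, -0.47 for NOP14, -0.44 for UTP20, -0.42 for NIP7 and -0.27 for NCL. They were 0.56 for TAF1A, 0.38 for NOP58 and 0.25 for WDR43. The GC content of the transcript had a Spearman correlation of -0.451 with this value across the 40 genes and -0.105 across 14513 coding genes, and its part in the single differences was not tested beyond the fits with the GC trend removed.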

How the results depend on the processing

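No member reversed a called direction. Held in every alternative were 1 of 6 calls in PA-1 (NOP14), 2 of 9 in SK-OV-3 (UBTF, NIP7), 28 of 32 between the lines and 2 of 10 for the difference of responses (UBTF, TAF1A). Alternatives also called members that the main fits did not. Counted over all alternatives, such calls were 0 in PA-1, 19 in SK-OV-3, 29 between the lines and 8 for the difference of responses. In PA-1, all genes called higher and lower were 707 and 378; they were 373 and 153 with the GC trend removed, 469 and 214 in a fit of all 12 libraries and 235 and 231 by library size only, and the lower calls were 726 with DESeq2 and 588 without a filter. Members called higher there (4) were 1 with the GC trend removed, with 12 libraries in 1 fit, by library size only and by library size without ribosomal RNA entries, and those called lower (2) were 1 with the GC trend removed and with 12 libraries in 1 fit; their median was -0.079 by library size only. In SK-OV-3, members called higher (1) were 2 with DESeq2 and with the GC trend removed, those called lower (8) were 4 with the GC trend removed, and the median was -0.020 with the GC trend removed and -0.096 with 12 libraries in 1 fit. With the GC trend removed, the median of all genes in SK-OV-3 moved too, from -0.0091 to 0.048, and that of the members stayed below it. Between the lines with DMSO, the median of 0.13 was 0.018 with the GC trend removed, 0.17 by library size only and 0.17 by library size without ribosomal RNA entries. The median of all genes between the lines went from 0.0019 to -0.048 with the GC trend removed. For the difference of responses, genes with a lower response (1307) were 773 and members (7) were 4 by library size only. The members' median of -0.083 was 0.014 with the GC trend removed, a step that moved all genes by a median of 0.10. It was -0.035 by library size only and -0.062 without ribosomal RNA entries. Apart from the GC trend and the scaling that the settings change by construction, the cause was not tested.

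No pairing by replicate number was seen: the deviations of same-numbered libraries from their group means correlated at -0.028 to 0.0042. These values cannot exclude a pairing, since they are taken over all genes kept by the filter with 3 libraries per group. With the replicate number as a block, 2 members were called higher and 1 lower in PA-1, and 7 lower and 1 higher in SK-OV-3. With the block and the GC trend removed together, PA-1 gave 276 genes higher and 74 lower, with 1 member higher and 0 lower; SK-OV-3 gave 815 genes lower, with 2 members higher and 5 lower and a median of -0.020. The median between the lines was then 0.018, and for the difference of responses 628 genes and 2 members were lower, with a median of 0.011.

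Leaving out each library in turn gave 273 to 810 genes higher and 65 to 418 lower in PA-1, with 1 to 2 members higher and 0 to 2 lower. In SK-OV-3 it gave 993 to 2050 genes higher and 788 to 1852 lower, with 0 to 1 members higher, 2 to 11 lower and a median of -0.11 to -0.083. The members' median ranged from 0.092 to 0.14 between the lines and from -0.11 to -0.061 for the difference of responses. The lowest count of a member in a library was 643, so that every member was well above the filter on low counts.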
